A study of Homo sapiens with 36 samples.

Results

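WNT ligands, their receptors, their secreted inhibitors and the factors at the end of the pathway were followed through neuron induction in human stem cells with and without RAI1, a chromatin-associated transcriptional regulator. The set was defined by gene symbol, and it was chosen with earlier results of these data known. It took in every row of the expression tables named as a WNT ligand, a frizzled receptor (FZD), LRP5 or LRP6, an SFRP or FRZB, a DKK inhibitor, an R-spondin (RSPO), LGR4 to LGR6, AXIN2, LEF1, TCF7, TCF7L1 or TCF7L2. It held 52 genes of 62710. By role these were 19 WNT ligands, 10 frizzled receptors, 2 LRP co-receptors, 7 R-spondins and LGR receptors, 5 SFRP decoys including FRZB, 4 DKK inhibitors and 5 target or TCF/LEF genes.

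The cells were H9, an established line of human embryonic stem cells. Neurons were induced by NGN2, a proneural transcription factor expressed under doxycycline, in a medium with CultureOne, GDNF, NT3, B27 and GlutaMAX, and total RNA was taken at days 0, 3 and 7. At each day there were 4 libraries of wild-type (WT), 4 of RAI1+/- (HET) and 4 of RAI1-/- (KO) cells, so that 9 groups gave 36 libraries, which the labels call biological replicates. The number of clones behind each genotype, and whether replicates are separate inductions, is not given in the sources used here. Clone and genotype therefore cannot be told apart, and p-values measure the spread between these libraries, which may be technical.

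WNT proteins are secreted, lipid-modified ligands. They bind frizzled receptors together with LRP5 or LRP6, which keeps β-catenin from being destroyed and lets it act with TCF/LEF factors on target genes such as AXIN2, itself a brake on the pathway. SFRP proteins bind WNT ligands outside the cell, DKK1, DKK2 and DKK4 act on the LRP co-receptors, and R-spondins, through LGR receptors, keep frizzled receptors at the surface. In stem cells the pathway is known for exit towards mesendoderm, and in the neural tube for dorsal patterning and progenitor division.

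Total counts ranged from 23.9 M to 56.7 M per library. All 8 pluripotency markers exceeded a mean of 1 CPM (a count scaled to a fixed library total) at day 0 in each genotype, and the 8 neuron markers summed to 229.9 to 491 CPM in WT at day 0 and 6575 to 12752 CPM at day 7. Replicate 4 of each day 3 group held more POU5F1, a stem cell factor, than the other replicates of its group, with 30.9 CPM in WT, 33.3 in HET and 6.47 in KO, where the other 9 libraries held 0.524 to 5.31 CPM. Day 3 calls are therefore given also with those libraries left out. RAI1 RNA was present in every group, with 22.2 to 40.2 CPM in WT and 23.6 to 48.8 CPM in KO at day 0, so its level does not check the genotype labels. Between 2.84% and 27.5% of the counts of a library belonged to 5 small structural RNAs (the signal recognition particle RNAs RN7SL1 and RN7SL2, with RMRP, RPPH1 and RN7SK), which moved TPM between libraries. TPM, which divides a count by transcript length before scaling to a fixed total, is used here to rank genes within a library, and CPM with TMM scaling to compare libraries.

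Of the 52 genes, 40 reached a mean of 1 CPM in at least 1 of the 9 groups. The other 12 were DKK1, DKK4, RSPO1, RSPO2, SFRP5, WNT1, WNT2, WNT6, WNT7A, WNT8A, WNT9B and WNT16, with RSPO1 the highest at a group mean of 0.827 CPM. In WT stem cells the decoys stood at the top on the TPM scale. SFRP1, with 173 ± 19.2 TPM (SD, n = 4), and SFRP2, with 127 ± 17.4 TPM, touched in range between libraries, with SFRP1 the higher within each. Both lay above FZD7, the leading frizzled receptor, with 72.7 ± 9.16 TPM. The next were LGR4, an R-spondin receptor, TCF7L1, known for holding WNT targets silent in stem cells, FZD2 and LRP6, with 23.3 ± 4.23, 23 ± 4.81, 22.2 ± 2.5 and 18.7 ± 2.79 TPM, and each overlapped its neighbour in that order. The 19 ligands together summed to 6.02 to 10.01 TPM per WT library at day 0, against 117.05 to 144.86 TPM for the 10 frizzled receptors and 263.15 to 333.11 TPM for the 5 decoys.

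By day 7 the order on the TPM scale was another one in the mutants. SFRP1 ranked first in WT neurons, with 22.83 to 84.55 TPM, and did not overlap DKK3, the second, with 3.48 to 13.24 TPM. DKK3 is a secreted glycoprotein placed with the DKK inhibitors by sequence, although it is not known to act on LRP co-receptors as the others do. In KO neurons DKK3 ranked first with 24.21 to 49.41 TPM, above FZD3 with 7.82 to 11.78 TPM, and SFRP1 was the fourth with 3.93 to 9.40 TPM. In HET neurons DKK3 ranked first and SFRP1 second, with 15.45 to 72.96 and 11.17 to 22.12 TPM. These ranges overlapped between libraries, while DKK3 lay above SFRP1 within each HET library.

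**Figure D1:**
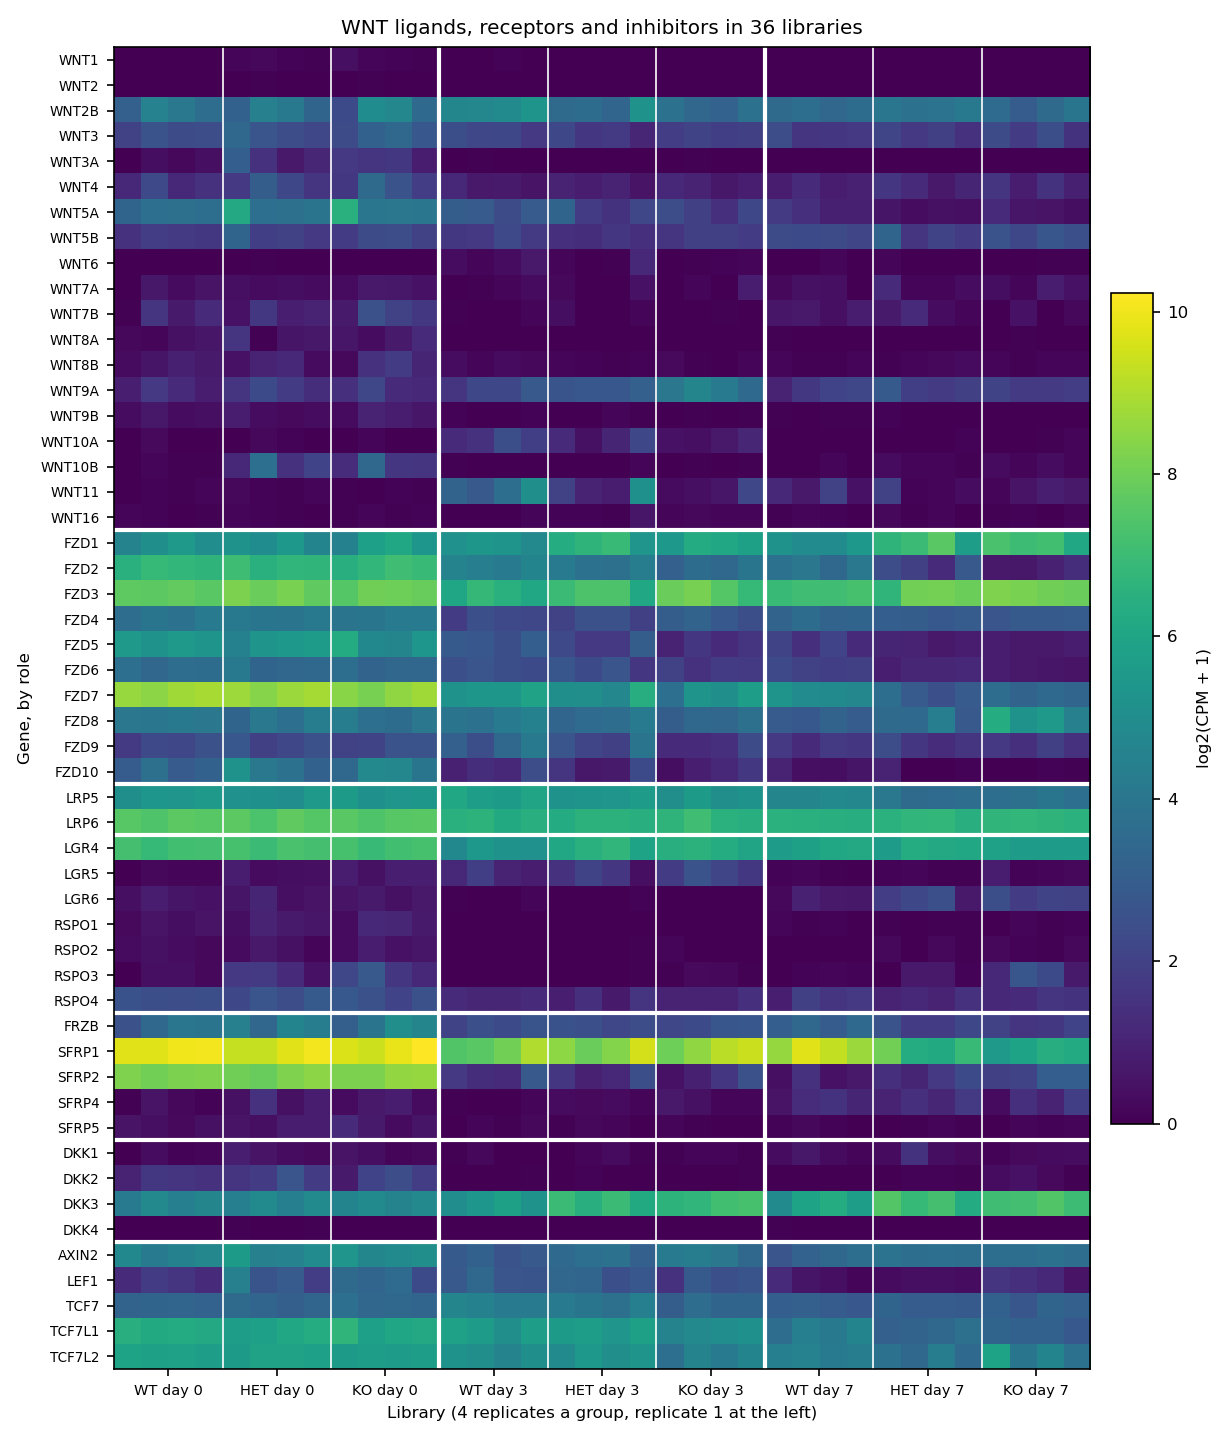
Level of all 52 genes (rows, by role) in the 36 libraries (columns, by day and genotype) as log2(CPM + 1) with TMM scaling over all libraries. SFRP1, SFRP2 and FZD7 are high at day 0 in every genotype, and most of the 19 ligands stay low throughout. From day 3 on SFRP2 is low and FZD7 is lower than at day 0.

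Promoter windows of 250 bases before the start site were found in the RefSeq table (GRCh38.p14) for 36 of the 52 genes, as 44 windows of 35116. They held a median of 20 CG pairs, against 11 over all windows (quartiles 3 and 23), and ranged from 1 to 44. The 3 windows below belong to WNT3A and RSPO3, which were near 0 in WT stem cells and higher in mutant ones, and to SFRP2, which dropped steeply over the first days of WT induction. Capitals mark CG pairs in the windows of WNT3A, at chr1:228006748-228006997 on the plus strand, and RSPO3, at chr6:127118421-127118670 on the plus strand. In the SFRP2 window, at chr4:153789084-153789333 on the minus strand, they mark ATTTGCAT, the octamer letters known to be read by POU factors such as POU5F1.
WNT3A: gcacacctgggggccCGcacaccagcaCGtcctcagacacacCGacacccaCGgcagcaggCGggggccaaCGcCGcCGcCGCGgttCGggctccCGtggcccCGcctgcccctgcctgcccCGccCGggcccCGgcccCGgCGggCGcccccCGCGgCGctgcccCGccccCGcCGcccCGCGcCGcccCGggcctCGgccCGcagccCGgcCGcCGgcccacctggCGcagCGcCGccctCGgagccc
RSPO3: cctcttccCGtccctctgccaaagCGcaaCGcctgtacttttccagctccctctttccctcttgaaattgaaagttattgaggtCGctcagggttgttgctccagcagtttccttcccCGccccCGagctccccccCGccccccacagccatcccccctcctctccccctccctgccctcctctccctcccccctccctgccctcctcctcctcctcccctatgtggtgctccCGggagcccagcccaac
SFRP2: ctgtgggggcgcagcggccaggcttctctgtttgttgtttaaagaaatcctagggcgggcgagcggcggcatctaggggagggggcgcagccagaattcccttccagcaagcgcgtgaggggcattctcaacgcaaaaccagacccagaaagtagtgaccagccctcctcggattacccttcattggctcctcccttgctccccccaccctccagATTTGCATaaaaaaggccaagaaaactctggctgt

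The WNT3A window held 38 CG pairs and the RSPO3 window 8. The octamer letters, searched on both strands, lay 35 bases before the SFRP2 start, were also found in a LGR4 window, and were present in 1.63% of all windows. CTTTGAA or CTTTGAT, letters known for TCF/LEF factors, were found on either strand in 5.94% of all windows and, within the set, in a DKK1 window alone. CAGATG, an E-box of the kind read by proneural factors, was found on either strand in 12.2% of all windows and in windows of LGR6, WNT5A and WNT5B. A match describes letters and not a binding site.

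The WT course shows how the pathway moved during induction itself. From day 0 to day 3, 33 of 39 members tested passed the test (edgeR quasi-likelihood F test, Benjamini-Hochberg adjusted p under 0.05 over all genes), 10 higher and 23 lower at day 3, where 60% of all genes passed (31.2% higher, 28.7% lower). The median log2 difference was -1.31 over the members and 0.07 over all genes. Of 10 frizzled receptors 7 fell and 1 rose, 3 of 4 decoys tested fell, and 4 ligands rose while 5 fell. In bulk RNA, fewer cells of a type and less RNA per cell cannot be told apart, here and in all that follows.

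SFRP2 (ENSG00000145423, chr4:153780592-153789120, GRCh38) held 305, 263, 293 and 303 CPM in WT replicates 1 to 4 at day 0 and 2.26, 1.53, 1.41 and 6.23 CPM at day 3. The days did not overlap, and the log2 difference was -6.69 ± 0.54 (SE, adjusted p = 1.28e-07). FZD7 (ENSG00000155760, chr2:202034587-202038445), known as a leading frizzled receptor of human stem cells, held 399.6, 353, 433 and 481 CPM at day 0 and 36, 41.5, 42 and 57.8 CPM at day 3, a log2 difference of -3.24 ± 0.18 (adjusted p = 3.58e-09). SFRP1 fell from 951 ± 102 to 289 ± 159 CPM (SD, n = 4), by 1.72 ± 0.32 on the log2 scale. LRP6, LGR4 and AXIN2 fell by 1.12 ± 0.11, 1.96 ± 0.17 and 1.83 ± 0.23 on that scale. LRP5 and DKK3 were higher at day 3 on the count scale, by 0.53 and 0.84. With log2(TPM + 1) the differences were -0.37 and -0.15, where the median of all genes was -0.38, and neither passed (limma adjusted p = 0.153 and 0.677). After the small structural RNAs were taken out of TPM they were 0.21 and 0.49, again without passing.

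Of the 4 ligands that rose, WNT11 and WNT10A started from almost nothing. WNT2B, the ligand with the highest TPM in WT stem cells, and WNT9A rose by 1.01 and 1.56 on the log2 scale. Each of these 2 calls was lost in 3 of 17 alternatives, among them log2(TPM + 1). WNT11, known mainly for β-catenin-independent signalling, held 0 to 0.0901 CPM in WT stem cells and 8.52, 6.3, 12 and 33.2 CPM at day 3, with replicate 4 the highest. The ratio of summed counts was 272 (counting interval 138 to 630.1), an exact 95% interval for counting error only. WNT10A, a ligand of the β-catenin branch, went from 10 summed counts to 444, a ratio of 38.5 (counting interval 20.8 to 80.9). By day 7 both were low again, WNT11 at 0.415 to 2.96 CPM and WNT10A with 1 count over the 4 libraries.

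LEF1 and TCF7, both TCF/LEF factors, went up and down in the same steps. LEF1, which is also a target of the pathway, held 1.32, 2.4, 1.95 and 1.41 CPM at day 0, 6.22, 9.94, 5.45 and 5.36 at day 3 and 1.42, 0.475, 0.326 and 0.0923 at day 7, with no overlap between successive days (adjusted p = 0.00365 and 8.71e-05). TCF7 went from 8.65 ± 0.306 to 20.1 ± 3.48 and 6.92 ± 0.739 CPM (SD, n = 4; adjusted p = 1.06e-05 and 2.12e-06).

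From day 3 to day 7 in WT, 26 of 39 members passed, 8 higher and 18 lower at day 7, where 46.2% of all genes passed (23.3% higher, 22.9% lower). WNT2B, FZD8, LRP5 and TCF7L1 fell, by 1.43 ± 0.26, 1.26 ± 0.18, 1.18 ± 0.14 and 1.4 ± 0.21 on the log2 scale. SFRP1, FRZB, LGR4, FZD3 and FZD4 were among those that rose, SFRP1 from 289 ± 159 to 575 ± 222 CPM with overlapping libraries (adjusted p = 0.019, lost without day 3 replicate 1, 2 or 3 or day 7 replicate 2, and on the TPM scale). DKK2, which acts on LRP co-receptors, was at 0 in all 4 WT libraries at day 7. With log2(TPM + 1) and limma 13 passed, 1 higher and 12 lower, where 30.2% of all genes passed.

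In stem cells, before induction, WNT10B passed as higher in both mutants, WNT3A in HET alone, and RSPO3 and LGR5 in KO alone. No frizzled receptor, co-receptor or decoy passed. In KO against WT 3 of 45 members tested passed, all higher in KO, where 2.08% of all genes passed (1.66% higher, 0.416% lower). They were WNT10B, RSPO3 and LGR5. In HET against WT 2 of 45 passed, both higher in HET, where 1.63% of all genes passed (1.22% higher, 0.411% lower). They were WNT10B and WNT3A. Both mutants are compared with the same WT libraries.

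WNT10B (ENSG00000169884, chr12:48965340-48971763) is a ligand of the β-catenin branch. It held 0.0275, 0.0932, 0.0471 and 0.03 CPM in WT replicates 1 to 4, 1.21, 12.5, 1.76 and 3.21 CPM in HET and 1.46, 9.61, 2.11 and 2 CPM in KO. Every mutant library lay above every WT library, and replicate 2 was the highest of both mutant groups. WT held 8 summed counts, HET 584 and KO 470, ratios to WT of 86.5 (counting interval 43.6 to 201) and 69.98 (counting interval 35.2 to 163). The log2 difference was 6.44 ± 1.09 in HET (SE, edgeR adjusted p = 0.00698) and 6.14 ± 1.09 in KO (adjusted p = 0.00837). WNT1, which lies 6689 bp away on the opposite strand, was at 0 in all 4 WT libraries and at 0.0304 to 0.324 CPM in the mutants, and was not tested.

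WNT3A (ENSG00000154342, chr1:228007051-228061260), the ligand most used to switch on β-catenin signalling in culture, held 0.0275, 0.303, 0.165 and 0.33 CPM in WT, 7.39, 1.71, 0.613 and 1.17 in HET and 2.27, 1.95, 2.17 and 0.699 in KO. Neither mutant group overlapped WT, and replicate 1 of HET stood far above the rest. The log2 difference was 3.73 ± 0.82 in HET (adjusted p = 0.0391) and 3.11 ± 0.82 in KO (adjusted p = 0.0798). The HET call was lost when any 1 of the 4 WT replicates, HET replicate 1 or HET replicate 2 was left out.

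RSPO3 (ENSG00000146374, chr6:127118604-127197765), an R-spondin, held 0, 0.35, 0.33 and 0.15 CPM in WT, 2.26, 2.35, 1.3 and 0.398 in HET and 3.53, 6.25, 2.04 and 1.18 in KO. Neither mutant group overlapped WT. The difference passed in KO, with a ratio of summed counts of 14.6 (counting interval 10.3 to 21.4) and a log2 difference of 3.94 ± 0.78 (adjusted p = 0.0175), and not in HET (2.89 ± 0.77, adjusted p = 0.109). The KO call was lost without WT replicate 3 and without WT replicate 4. LGR5, an R-spondin receptor and itself a known WNT target, was low throughout, with 17 summed counts in WT and 89 in KO, a ratio of 6.24 (counting interval 3.68 to 11.2) (adjusted p = 0.0125).

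Of the targets, LEF1 and AXIN2 did not pass in either mutant, while LGR5 passed in KO and SP5, given further below, passed in HET. LEF1 held 1.32, 2.4, 1.95 and 1.41 CPM in WT, 20.9, 5.31, 6.63 and 2.62 in HET and 10.6, 8.97, 10.9 and 3.98 in KO, with no overlap between either mutant group and WT. Its log2 difference was 2.35 ± 0.56 in HET (adjusted p = 0.0637) and 2.3 ± 0.56 in KO (adjusted p = 0.0587). AXIN2, the feedback gene often read as a measure of pathway activity, overlapped, with 26.4, 17.5, 21.4 and 25.5 CPM in WT, 46.6, 20.9, 22.4 and 29.7 in HET and 39.1, 25.1, 28.6 and 32 in KO (adjusted p = 0.52 and 0.426). The co-receptors stood at like levels: LRP6 held 188, 171, 198 and 187 CPM in WT, 201, 162, 209 and 185 in HET and 197, 169, 188 and 196 in KO. Its log2 differences were 0.05 ± 0.08 and 0.04 ± 0.08. LRP5 held 33.6, 41.1, 39.3 and 44.3, 35.3, 33.9, 31.6 and 45.3 and 47.1, 33.7, 39.9 and 41.5 CPM, with differences of -0.09 ± 0.12 and 0.06 ± 0.12.

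Replicate number moved with several of these values. WNT5A, a ligand of the β-catenin-independent branch, held 8.93, 12.3, 12.9 and 11.8 CPM in WT, 71.2, 12.3, 12.9 and 14.3 in HET and 89.97, 15.4, 15.6 and 15.3 in KO, so replicate 1 of each mutant stood apart. With those replicates left out together, 6 members passed in KO, adding WNT3A, LEF1 and FZD10, and 1 in HET, WNT10B, where 2.94% and 1.89% of all genes passed. In KO against WT same-numbered replicates deviated together, and with the replicate number as a block 7 members passed, all higher, where 4.7% of all genes passed. The block added LEF1 (2.18 ± 0.43, adjusted p = 0.0198), AXIN2 (0.48 ± 0.11, adjusted p = 0.0423), WNT4 and WNT7B.

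KO against HET stem cells gave 0 of 45 members by edgeR, 0 at an unadjusted p under 0.05 and 0 by DESeq2, where 0.856% of all genes passed (0.524% higher, 0.333% lower). Mesendoderm markers were low. The 7 summed to 0.824 to 1.65 CPM in WT, 2.44 to 6.45 in HET and 1.58 to 5.18 in KO, where KO overlapped WT. None was at 0 in every library of a group. EOMES held 0.12 to 0.699 CPM in WT, 0.954 to 3.04 in HET and 0.638 to 1.61 in KO. MIXL1 held 0.424 to 0.606 CPM in WT, 0.504 to 1.08 in HET and 0.364 to 0.998 in KO. TBXT held 0 to 0.137, 0.101 to 1.34 and 0.0329 to 0.269 CPM, and both genes overlapped WT in each mutant. The part of this list in the result was not tested.

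**Figure D2:**
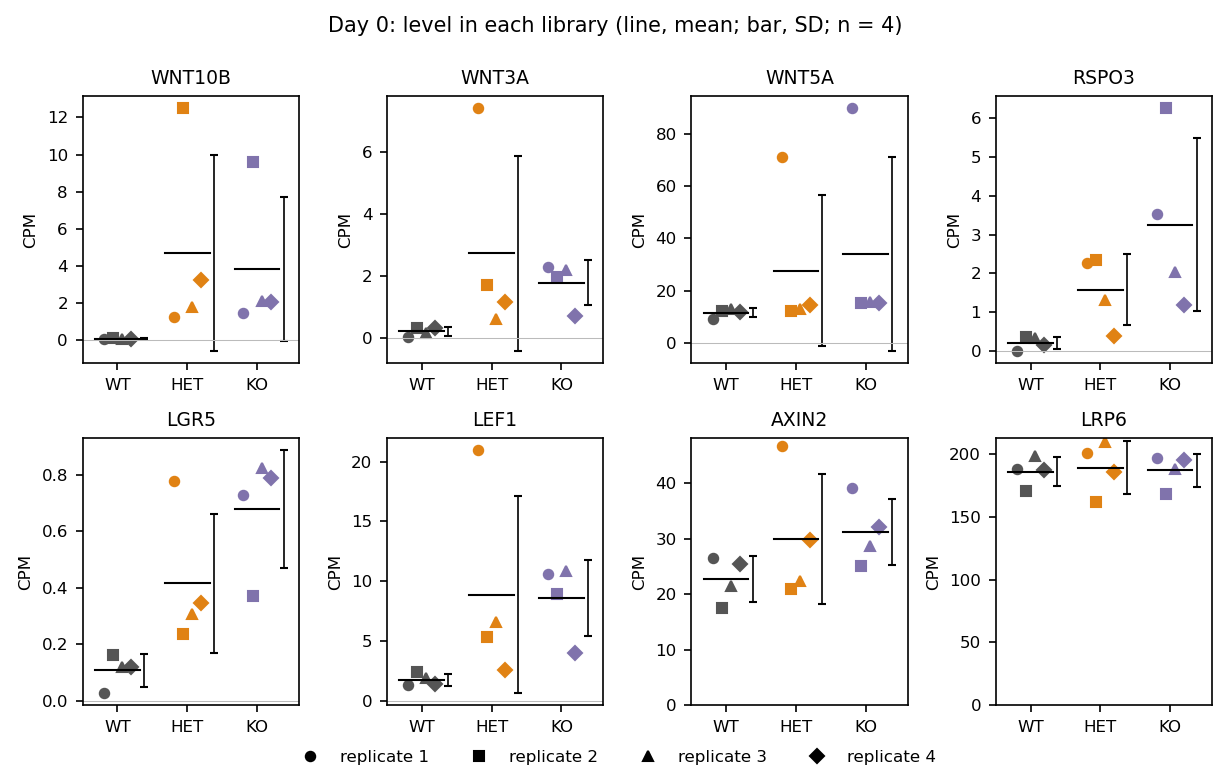
CPM (y axes) of 8 genes in the 12 day 0 libraries, with symbols for replicate number, lines for group means and bars for SD (n = 4). WNT10B, WNT3A, RSPO3, LGR5 and LEF1 are higher in every mutant library than in every WT library, WNT5A is high in replicate 1 of HET (71.2 CPM) and KO (89.97 CPM), and AXIN2 and LRP6 overlap.

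At day 3 receptors, ligands and TCF factors differed, mostly in KO. In KO against WT 18 of 33 members tested passed, 6 higher and 12 lower in KO, where 21.6% of all genes passed (12.6% higher, 8.93% lower). Lower in KO were WNT11, WNT10A and WNT2B, 5 frizzled receptors, LRP5 and 3 TCF factors. Higher were WNT9A, DKK3, FZD3, FZD4, LGR4 and AXIN2. The median log2 difference was -0.49 over the members and -0.05 over all genes.

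WNT9A (ENSG00000143816, chr1:227918656-227947898), a ligand of the β-catenin branch, held 1.99, 3.64, 3.68 and 6.2 CPM in WT replicates 1 to 4, 5.37, 5.78, 5.82 and 7.76 in HET and 15.8, 24.4, 18.1 and 10.4 in KO. KO did not overlap the other groups. The log2 difference was 2.13 ± 0.33 against WT (adjusted p = 0.000521) and 1.44 ± 0.32 against HET (adjusted p = 0.0242), the latter lost when any 1 of replicates 1 to 3 of HET or KO was left out.

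WNT11 (ENSG00000085741, chr11:76186325-76210736) held 8.52, 6.3, 12 and 33.2 CPM in WT, 3, 1.02, 0.777 and 33.8 in HET and 0.239, 0.325, 0.531 and 3.56 in KO. KO lay below every WT library, and replicate 4 was the highest of each group. The log2 difference in KO was -3.69 ± 1.23 (adjusted p = 0.0467), lost without any 1 of the WT replicates or of KO replicates 1 to 3, and with replicate 4 of every group left out it was -4.64 ± 0.55 (adjusted p = 0.000118). In HET it was -0.61 ± 1.09 (adjusted p = 0.868) with all replicates and -2.49 ± 0.48 (adjusted p = 0.00921) without replicate 4 of every group.

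WNT10A and WNT2B followed. WNT10A held 1.4, 1.73, 4.5 and 2.71 CPM in WT, 1.35, 0.373, 1.1 and 3.63 in HET and 0.407, 0.347, 0.615 and 1.16 in KO (-2.04 ± 0.63, adjusted p = 0.0329, lost without WT replicate 3 or 4 or KO replicate 1, 2 or 3). WNT2B, whose gene body overlaps ST7L, held 24.9, 25.5, 28 and 38.6 CPM in WT, 10.8, 11.4, 9.21 and 36.2 in HET and 13.4, 9.41, 8.19 and 13.6 in KO (-1.41 ± 0.39, adjusted p = 0.0214, lost without WT replicate 4 or KO replicate 2 or 3). Neither KO group overlapped WT, and HET replicate 4 lay with WT in WNT2B.

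Among the receptors, FZD9 and FZD5 were the farthest below WT. FZD9 held 7.79, 4.47, 9.71 and 16.4 CPM in WT, 5.44, 3.44, 2.87 and 14.5 in HET and 1.41, 1.34, 1.57 and 4.2 in KO, a log2 difference of -2.18 ± 0.58 in KO (adjusted p = 0.016, lost without KO replicate 1 or 2). FZD5 held 6.37, 5.82, 4.42 and 7.31 CPM in WT, 3.82, 2.29, 2.28 and 7.02 in HET and 0.981, 2.1, 1.4 and 1.98 in KO (-1.91 ± 0.38, adjusted p = 0.00318). FZD2, FZD6 and FZD8 were lower in KO by 0.95 ± 0.22, 0.97 ± 0.3 and 0.79 ± 0.25 on the log2 scale, without overlap. The FZD6 call was lost in 10 of 18 alternatives, among them leaving out WT replicate 1, 2 or 3 or KO replicate 2, 3 or 4, and the FZD8 call in 9 of 18, among them WT replicate 3 or 4 or KO replicate 1, 2 or 3. FZD3, a receptor known for axon guidance, went the other way, with 64.2, 110.2, 89.4 and 70.3 CPM in WT, 125, 166, 167 and 67.5 in HET and 238, 284, 187 and 114 in KO (1.28 ± 0.31, adjusted p = 0.0104).

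Of the co-receptors LRP5 passed in KO and LRP6 did not. LRP5 held 67.6, 53, 46.5 and 62.2 CPM in WT, 37.6, 38.4, 39.2 and 48 in HET and 32.7, 46.9, 32.6 and 37.3 in KO, lower in KO by 0.64 ± 0.16 (adjusted p = 0.014) with overlapping libraries, a call lost without WT replicate 4 or KO replicate 3. LRP6 held 88.2, 96.4, 74.1 and 84.3, 77.3, 93.4, 94 and 84.6 and 99, 136, 91.9 and 84.4 CPM and did not pass (0.24 ± 0.16 in KO, adjusted p = 0.3). Whether the change in LRP5 differed from that in LRP6 was not tested.

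DKK3 and LGR4 were higher in both mutants. DKK3 (ENSG00000050165, chr11:11963106-12009769) held 31, 40.1, 54.8 and 37 CPM in WT, 126, 86.7, 124 and 72.5 in HET and 96.9, 106, 140.1 and 151 in KO. Every mutant library lay above every WT library, by 1.35 ± 0.24 in HET (adjusted p = 0.00546) and 1.58 ± 0.24 in KO (adjusted p = 0.000429) on the log2 scale. LGR4 (ENSG00000205213, chr11:27365961-27472775) held 26.2, 42.5, 36.3 and 34.9 CPM in WT, 70.03, 89.7, 106 and 59.4 in HET and 84.6, 95.5, 79.9 and 62 in KO, again without overlap (1.23 ± 0.2, adjusted p = 0.00398, and 1.18 ± 0.2, adjusted p = 0.0012).

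At the end of the pathway AXIN2 and the TCF factors went opposite ways in KO. AXIN2 (ENSG00000168646, chr17:65528563-65561647) held 6.37, 7.96, 5.09 and 6.23 CPM in WT, 10.4, 12.5, 13 and 7.9 in HET and 16.8, 18.4, 15.7 and 9.63 in KO, with no overlap between KO and WT (1.22 ± 0.23, adjusted p = 0.0023). TCF7, named here after its values were seen, held 24.5, 21.4, 17 and 17.7 CPM in WT, 18.3, 14.7, 12.7 and 20.4 in HET and 7.16, 11.5, 8.92 and 8.87 in KO (-1.17 ± 0.21, adjusted p = 0.00136), also without overlap. TCF7L1 and TCF7L2 were lower in KO by 0.74 ± 0.19 and 0.72 ± 0.22, with overlapping libraries. LEF1 held 6.22, 9.94, 5.45 and 5.36 CPM in WT, 9.26, 9.11, 4.7 and 5.78 in HET and 1.77, 6.49, 4.58 and 5.26 in KO, without passing (adjusted p = 0.932 in HET and 0.26 in KO).

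In HET against WT at day 3, 3 of 33 members passed, all higher in HET, where 3.28% of all genes passed (2.52% higher, 0.761% lower). The third, beside DKK3 and LGR4, was FZD1 (1.27 ± 0.28, adjusted p = 0.0265), with 27.2 to 41.4 CPM in WT and 39.9 to 123 CPM in HET, a call lost without any 1 of the WT replicates or of HET replicates 1 to 3. Same-numbered WT and HET replicates deviated together at this day, and with the replicate number as a block 6 passed, where 8.79% of all genes passed, adding AXIN2 (0.77 ± 0.18, adjusted p = 0.0206), higher, and WNT11 and WNT2B, lower. KO against HET gave 4 of 33, WNT9A higher and TCF7, TCF7L1 and TCF7L2 lower in KO, where 4.35% of all genes passed (2.77% higher, 1.58% lower), and 0 to 4 with 1 replicate left out.

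Leaving out replicate 4 of every group gave 20 members in KO against WT, 8 higher and 12 lower, where 29.4% of all genes passed. These held all 18 called with every replicate, in the same direction, and added SFRP1 and FZD1, both higher. The log2 differences were then 2.63 ± 0.27 for WNT9A, -2.51 ± 0.56 for WNT10A and -1.36 ± 0.21 for WNT2B among the ligands. Among the receptors they were -2.37 ± 0.34 for FZD9, -1.9 ± 0.34 for FZD5, -1.07 ± 0.21 for FZD2, -1.04 ± 0.26 for FZD6, -0.8 ± 0.21 for FZD8, 1.41 ± 0.24 for FZD3, -0.59 ± 0.19 for LRP5 and 1.29 ± 0.21 for LGR4. For DKK3, AXIN2 and TCF7 they were 1.42 ± 0.25, 1.38 ± 0.2 and -1.21 ± 0.23. HET against WT gave 6, 4 higher and 2 lower, where 6.17% of all genes passed, with all 3 of the earlier calls among them (DKK3 1.41 ± 0.25, LGR4 1.33 ± 0.21 and FZD1 1.37 ± 0.23). KO against HET gave 5, 1 higher and 4 lower, where 6.05% of all genes passed. WNT9A (1.77 ± 0.26, adjusted p = 0.00291) and TCF7L2 (-0.98 ± 0.25, adjusted p = 0.0412) were called both ways, TCF7 and TCF7L1 were lost, and WNT11, FZD6 and FZD9 were added, all lower in KO.

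With 1 replicate left out, the KO count was 11 without WT replicate 4, KO replicate 1 or KO replicate 2, and 10 without KO replicate 3. With log2(TPM + 1) and limma it was 3, all higher, where 3.78% of all genes passed. After the small structural RNAs were taken out of TPM it was 11, with 7 higher and 4 lower, where 19.1% passed. Neuron markers summed to 1393 to 1728 CPM in WT, 2071 to 4829 in HET and 5281 to 8687 in KO at day 3, and the 6 markers of dividing cells to 1132 to 2249, 1356 to 1916 and 416 to 1181 CPM. All genes of both lists exceeded a mean of 1 CPM in each group. The 7 neural crest and peripheral markers summed to 10.7 to 15.1, 18.1 to 51.4 and 105 to 243 CPM in WT, HET and KO, with no overlap between groups, no marker at 0 in every library of a group, and 3, 3 and 5 of 7 above a mean of 1 CPM. The part of these 3 lists in the results was not tested.

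**Figure D3:**
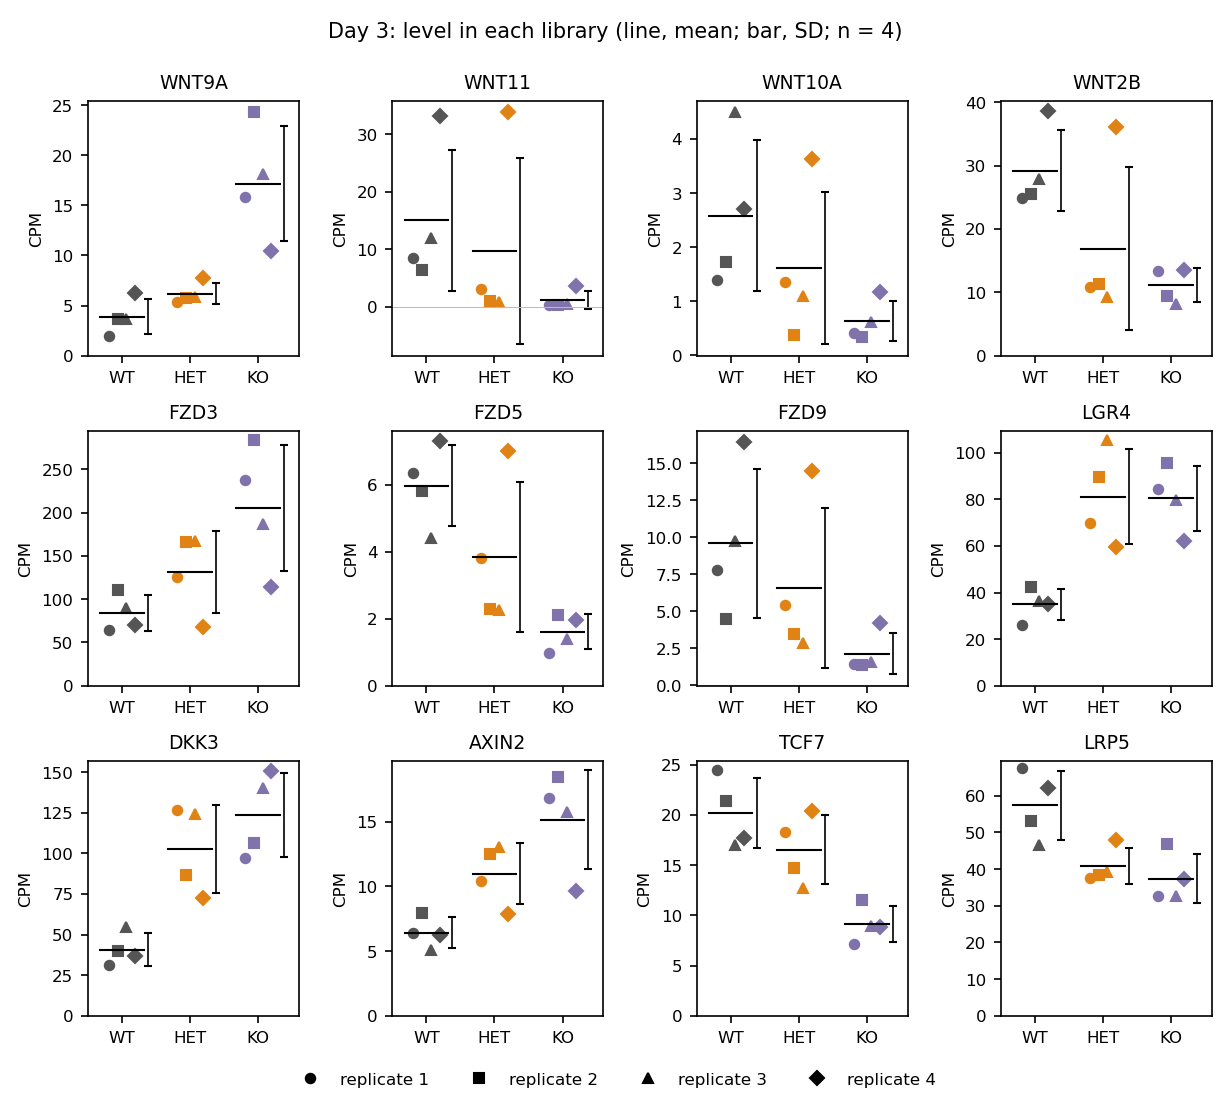
CPM (y axes) of 12 genes in the 12 day 3 libraries, with symbols for replicate number, lines for group means and bars for SD (n = 4). WNT9A is highest in KO, WNT11, FZD5, FZD9 and TCF7 are lower in every KO library than in every WT library, and replicate 4 (diamonds) is the highest HET library for WNT11 (33.8 CPM), WNT2B (36.2 CPM) and FZD9 (14.5 CPM).

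By day 7, 9 of 10 frizzled receptors and 3 of 4 decoys tested had passed in KO, and 5 of 10 and 2 of 4 in HET, while no ligand passed in KO. In KO against WT 17 of 36 members tested passed, 7 higher and 10 lower in KO, where 32.6% of all genes passed (17% higher, 15.6% lower). In HET against WT 12 of 36 passed, 3 higher and 9 lower in HET, where 14.4% of all genes passed (8.31% higher, 6.1% lower). Of the 10 frizzled receptors 3 rose and 6 fell in KO, and 1 rose and 4 fell in HET. FZD2, FZD5, FZD6, FZD7, SFRP1, FRZB, LRP5 and TCF7L1 were lower and FZD1, LGR6 and DKK3 higher in each mutant, both compared with the same WT libraries.

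FZD2 (ENSG00000180340, chr17:44557459-44559570), a receptor known for WNT5A signalling, held 13.4, 15.6, 9.86 and 16.2 CPM in WT replicates 1 to 4, 4.3, 2.82, 1.4 and 6.22 in HET and 0.642, 0.596, 0.904 and 1.51 in KO. Both mutant groups lay below every WT library, and HET replicate 3 lay within the KO range. The log2 difference was -3.92 ± 0.45 in KO (adjusted p = 8.32e-05) and -1.92 ± 0.41 in HET (adjusted p = 0.00843), and KO was below HET by 2.0 ± 0.43 (adjusted p = 0.0374).

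FZD7, FZD6 and FZD5 were lower in both mutants without overlap. FZD7 held 38.5, 29.7, 29.2 and 25.8 CPM in WT, 11.9, 6.75, 4.6 and 6.74 in HET and 11.4, 8.5, 10.4 and 9.12 in KO (-2.05 ± 0.26, adjusted p = 0.000439, and -1.64 ± 0.25, adjusted p = 0.000502). FZD6 held 3.85, 3.11, 2.72 and 2.88 CPM in WT, 0.803, 1.17, 1.15 and 1.24 in HET and 0.719, 0.621, 0.521 and 0.472 in KO (-1.53 ± 0.25 and -2.42 ± 0.26). FZD5 held 3.33, 1.57, 3.17 and 1.38 CPM in WT, 1.06, 1, 0.637 and 0.723 in HET and 0.719, 0.646, 0.63 and 0.724 in KO (-1.46 ± 0.33 and -1.78 ± 0.34). FZD10, named after its values were seen, had 80 summed counts in WT and 6 in KO, a ratio of 0.0774 (counting interval 0.0276 to 0.176).

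FZD8 (ENSG00000177283, chr10:35638249-35642278), a frizzled receptor of the β-catenin branch, was higher in KO. It held 6.69, 6, 8.68 and 6.78 CPM in WT, 10.6, 10.2, 19.8 and 6.22 in HET and 79.2, 36.4, 43.7 and 21.2 in KO. KO overlapped neither WT nor HET, with a log2 difference of 2.68 ± 0.4 against WT (adjusted p = 0.000403) and 1.95 ± 0.39 against HET (adjusted p = 0.0241). FZD1 held 36.7, 29.4, 29.6 and 43.4 CPM in WT, 98.7, 126, 194 and 51.3 in HET and 155, 129, 141 and 69.8 in KO, higher in both (1.75 ± 0.35, adjusted p = 0.00585, and 1.83 ± 0.35, adjusted p = 0.00179). FZD3 was 136 ± 13 CPM in WT and 273 ± 30.7 in KO (SD, n = 4; 1.0 ± 0.25, adjusted p = 0.00798), and in HET, where replicate 1 lay below the rest at 104 CPM, it did not pass (adjusted p = 0.0774).

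Among the decoys SFRP1 and SFRP2 moved apart. SFRP1 held 386, 867, 628 and 419 CPM in WT, 263, 78.8, 72.8 and 117 in HET and 44.4, 60.8, 81.5 and 76.3 in KO. Neither mutant group overlapped WT, and the log2 difference was -2.12 ± 0.41 in HET (adjusted p = 0.0051) and -3.13 ± 0.43 in KO (adjusted p = 0.00024). SFRP2 held 0.333, 1.78, 0.415 and 0.646 CPM in WT, 1.58, 1.09, 2.2 and 3.93 in HET and 2.85, 3.23, 7.4 and 7.39 in KO, higher in KO (2.69 ± 0.58, adjusted p = 0.0038) and overlapping in HET (adjusted p = 0.111). FRZB, a decoy first known from cartilage, held 7.36, 9.85, 6.99 and 10.2 CPM in WT, 5.18, 2.39, 2.4 and 3.61 in HET and 3.08, 1.94, 2.16 and 3.21 in KO (-1.35 ± 0.29, adjusted p = 0.00874, and -1.73 ± 0.29, adjusted p = 0.000911).

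DKK3 was higher at day 7 too. It held 29.2, 59.4, 80.6 and 51.9 CPM in WT, 181, 114, 146 and 77.8 in HET and 134, 143, 175 and 129 in KO, where HET but not KO overlapped WT (1.23 ± 0.29, adjusted p = 0.0148, and 1.4 ± 0.3, adjusted p = 0.00338).

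RSPO3 was again higher in KO, as in stem cells. It held 0, 0.0712, 0.0889 and 0.0692 CPM in WT, 0, 0.624, 0.612 and 0.0803 in HET and 1.28, 5.76, 3.86 and 0.692 in KO. That was 9 summed counts in WT against 445 in KO, a ratio of 51 (counting interval 26.6 to 112) and a log2 difference of 5.55 ± 1.07 (adjusted p = 0.00189). HET overlapped WT and did not pass (adjusted p = 0.154). LGR6, an R-spondin receptor, held 0.151, 0.902, 0.622 and 0.577 CPM in WT, 2.59, 3.69, 4.73 and 0.602 in HET and 4.44, 2.41, 3.26 and 2.89 in KO (2.35 ± 0.57, adjusted p = 0.0151, lost without HET replicate 3, and 2.51 ± 0.57, adjusted p = 0.00505).

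LRP5 (ENSG00000162337, chr11:68312609-68449275) was lower in both mutants, with 24.5, 24, 27.1 and 25.8 CPM in WT, 16.1, 10.6, 10.8 and 11.5 in HET and 12.1, 12.5, 14.9 and 12.4 in KO. Neither overlapped WT, and the log2 difference was -1.05 ± 0.16 (adjusted p = 0.0015) and -0.96 ± 0.16 (adjusted p = 0.000808). LRP6 (ENSG00000070018, chr12:12116025-12267012) held 91.1, 88.9, 85.4 and 83.2, 91.6, 104, 108 and 86.9 and 102, 108, 98.7 and 91.8 CPM and did not pass (0.16 ± 0.12 and 0.2 ± 0.12, adjusted p = 0.418 and 0.22). AXIN2 held 5.57, 8.35, 9.57 and 12 CPM in WT, 13.8, 12.1, 12.5 and 11.9 in HET and 12.1, 12, 13.1 and 11.6 in KO. LEF1 held 1.42, 0.475, 0.326 and 0.0923, 0.233, 0.326, 0.343 and 0.281 and 1.95, 1.64, 1.29 and 0.472 CPM, and neither gene passed in either mutant. WNT5A, named after its values were seen, was the 1 ligand that passed at this day, lower in HET with 0.271 to 0.492 CPM against 0.854 to 2.3 in WT (-1.96 ± 0.49, adjusted p = 0.0187).

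KO against HET at day 7 gave 2 of 36 members, FZD8 higher and FZD2 lower in KO, where 1.4% of all genes passed (0.668% higher, 0.737% lower). Both calls were lost without HET replicate 1 or 4 or KO replicate 1 or 3, FZD2 also without KO replicate 2 and FZD8 without HET replicate 2. With log2(TPM + 1) and limma KO against WT gave 3 higher and 2 lower and HET against WT 0, where 4.64% and 1.25% of all genes passed. Without the small structural RNAs it was 9 higher and 8 lower, and 4 higher and 6 lower, where 30% and 14.8% passed. Neuron markers summed to 6575 to 12752 CPM in WT, 13001 to 17071 in HET and 14503 to 19732 in KO. Those of dividing cells summed to 32 to 212, 10.8 to 25.3 and 11.9 to 15 CPM. The 7 mesenchymal or fibroblast markers summed to 39.4 to 58.4, 6.22 to 40.7 and 4.99 to 6.76 CPM, with DCN at 0 in every WT and HET library. The 7 neural crest and peripheral markers summed to 87.1 to 227, 144 to 783 and 326 to 805 CPM, with none at 0. The 8 pluripotency markers summed to 51.1 to 64.9, 79.1 to 159.6 and 236 to 313 CPM, with 3 of 8 above a mean of 1 CPM in each group and TDGF1 at 0 in every WT library, and did not overlap between groups. POU5F1 did not follow that sum, with 0.0606 to 0.166, 0 to 0.241 and 0 to 0.0548 CPM in WT, HET and KO. NANOG was near 0 throughout, with 0.0296 to 0.0712, 0.0401 to 0.122 and 0 to 0.0994 CPM. The 7 neural progenitor markers summed to 790.5 to 887, 555 to 1091 and 455 to 537 CPM, where KO overlapped neither WT nor HET. The part of these 6 lists in the results was not tested.

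**Figure D4:**
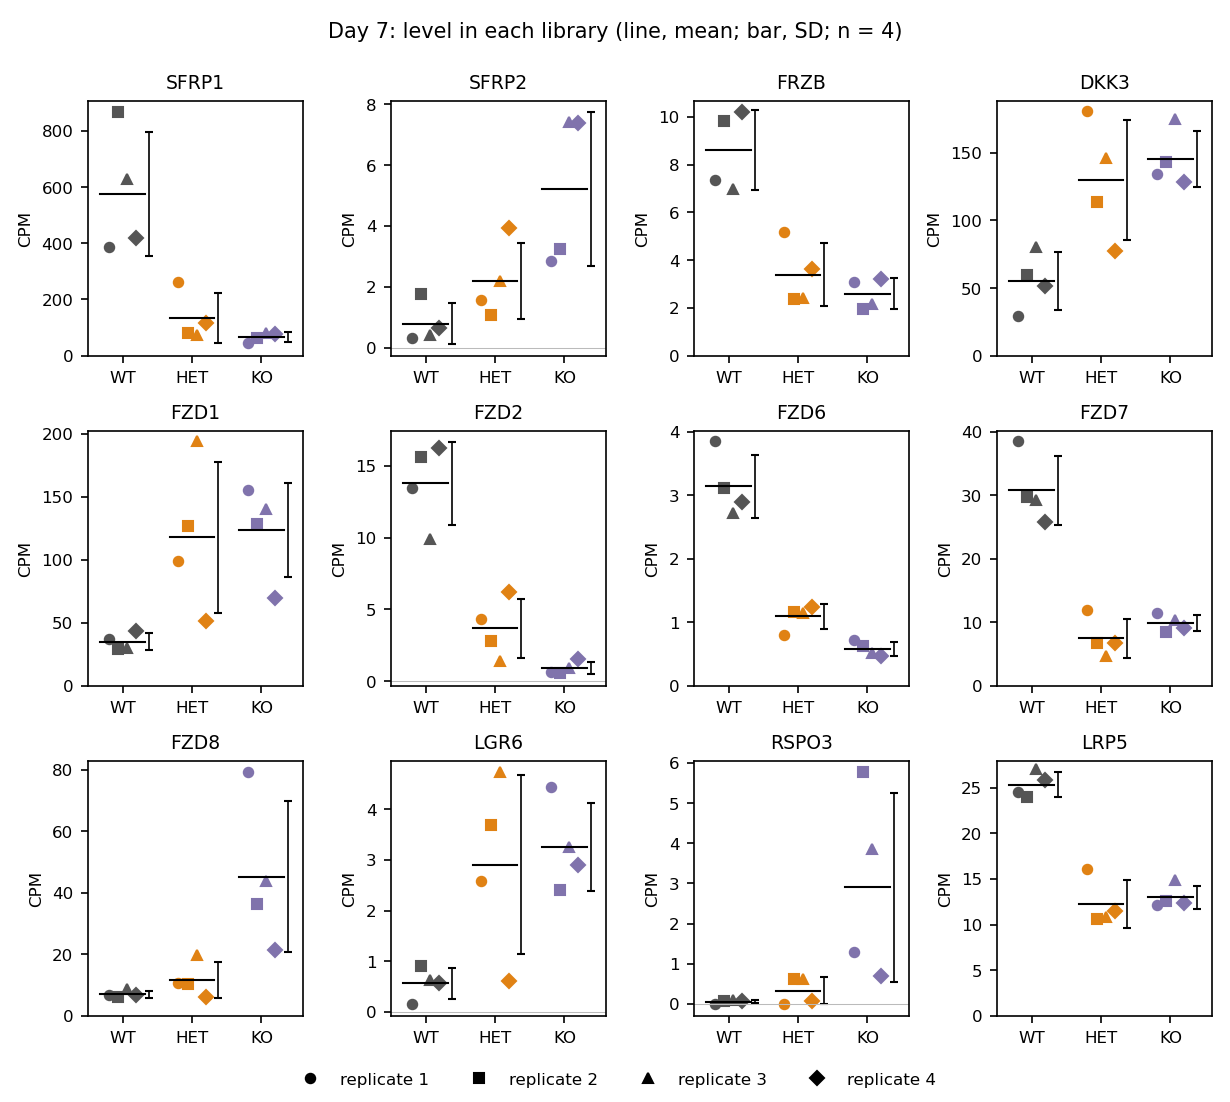
CPM (y axes) of 12 genes in the 12 day 7 libraries, with symbols for replicate number, lines for group means and bars for SD (n = 4). SFRP1, FRZB, FZD2, FZD6, FZD7 and LRP5 are lower in every mutant library than in every WT library, while SFRP2, FZD8 and RSPO3 are higher in every KO library than in every WT library.

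Whether the step from 1 day to the next differed between genotypes was tested over all 36 libraries. From day 0 to 3, 9 of 47 members passed in KO against WT, 3 higher and 6 lower, where 8.55% of all genes passed (5.37% higher, 3.19% lower), and 1 of 47 in HET, LGR4, where 0.271% passed (0.182% higher, 0.0888% lower). The LGR4 call in HET was lost in 13 of 25 alternatives. DKK3 rose further in KO than in WT, by 1.43 ± 0.35 on the log2 scale (adjusted p = 0.0083), and LGR4 fell less, by 1.16 ± 0.24 (adjusted p = 0.00249). LEF1 went from 1.77 to 6.74 CPM in WT and from 8.6 to 4.53 CPM in KO, a difference in the step of -2.85 ± 0.75 (adjusted p = 0.0145).

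From day 3 to 7, 15 of 47 members passed in KO against WT, 7 higher and 8 lower, where 18.5% of all genes passed (7.6% higher, 10.9% lower), and 5 of 47 in HET, all lower, where 4.74% passed (2.06% higher, 2.69% lower). FZD8 went from 16.9 to 7.04 CPM in WT and from 9.85 to 45.2 CPM in KO, a difference of 3.46 ± 0.45 (adjusted p = 1.10e-06). SFRP1 went from 289 to 575 CPM in WT, from 418 to 133 in HET and from 472 to 65.8 in KO, differences of -2.64 ± 0.55 (adjusted p = 0.00318) and -3.83 ± 0.56 (adjusted p = 7.70e-06). The rise of SFRP1 in WT over these days is the call given above as lost without single libraries.

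The frizzled receptors FZD2, FZD6 and FZD7 fell further in both mutants than in WT, FZD2 by 1.5 ± 0.39 in HET and 3.0 ± 0.41 in KO. The FZD7 call in KO was lost in 18 of 25 alternatives. LGR4 and WNT9A were no longer above WT in KO at day 7. LGR4 held 50.8 ± 4.6 CPM in KO and 60.8 ± 10.4 in WT (SD, n = 4; difference in the step -1.46 ± 0.24, adjusted p = 5.01e-05), and WNT9A 2.66 ± 0.45 and 2.45 ± 1.15 CPM (-2.04 ± 0.57, adjusted p = 0.0108).

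**Figure D5:**
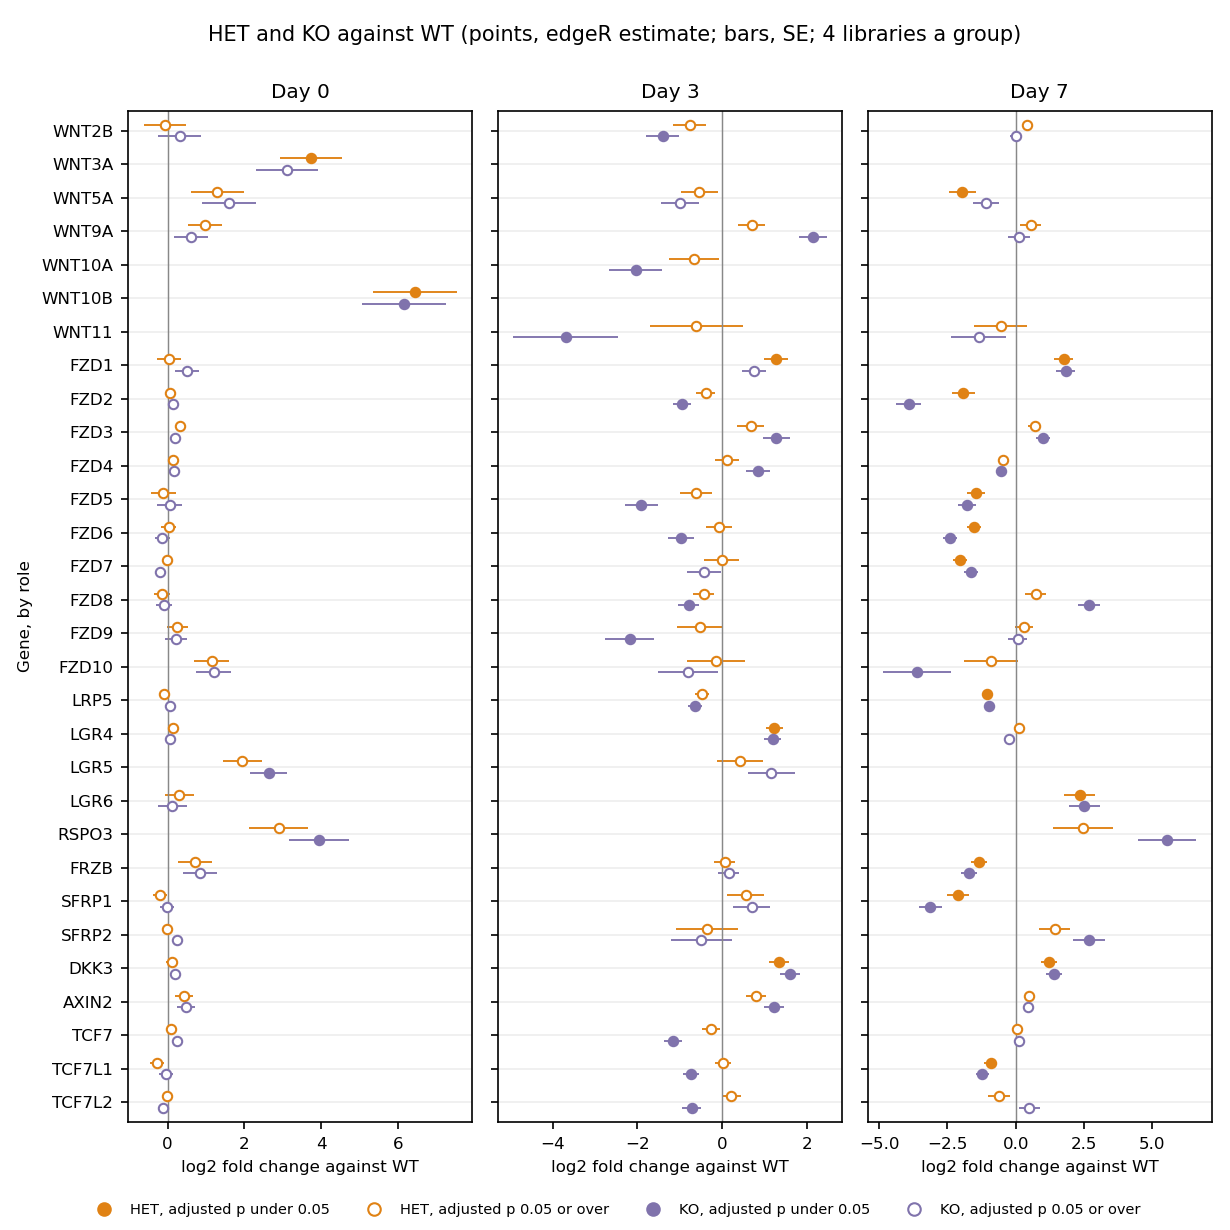
Log2 difference from WT (x axes; points with SE bars) at days 0, 3 and 7 for the 30 members that passed in HET (orange) or KO (purple) at any day, filled where the adjusted p was under 0.05. At day 0 the filled points are WNT10B, WNT3A, RSPO3 and LGR5, all right of 0, and at day 7 FZD1, LGR6 and DKK3 lie right of 0 and FZD2, FZD6, FZD7, SFRP1 and LRP5 left of it in both mutants.

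Of 56 other pathway genes (for WNT secretion, the destruction complex, planar polarity and feedback), 53 were tested at day 0, of which 2 were higher in KO and 2 in HET, and none lower, beside 2.08% and 1.63% of all genes called. GPC3, a glypican that binds WNT ligands, was 58.5 ± 13.7 CPM in WT and 109 ± 11.3 in KO (SD, n = 4; log2 difference 0.93 ± 0.18, adjusted p = 0.015). SP5, a direct target of the β-catenin branch, was 0.0646 ± 0.0889 CPM in WT and 3.76 ± 5.02 in HET (5.72 ± 1.09, adjusted p = 0.0162).

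At day 3, 19 of 51 were higher and 5 lower in KO, and 5 higher in HET, beside 21.6% and 3.28% of all genes called. ROR2, a receptor for WNT5A, was 21.5 ± 4.81 CPM in WT, 50.8 ± 15.3 in HET and 95.3 ± 25.3 in KO. The feedback inhibitors NOTUM and NKD1 were higher in both mutants, NKD1 with 30.2 ± 6.69, 65.3 ± 15.2 and 69.1 ± 17.8 CPM. APCDD1, an inhibitor at the cell membrane, was 11.3 ± 5.27 CPM in WT and 60.6 ± 11.3 in KO, and CELSR1, a planar polarity cadherin, 4.34 ± 1.43 and 0.999 ± 0.22 CPM, both of which passed. APC2 passed as well, with 28.4 ± 8.1 CPM in WT and 200 ± 90.1 in KO.

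At day 7, 10 of 50 were higher and 18 lower in KO, and 6 higher and 8 lower in HET, beside 32.6% and 14.4% of all genes called. DACT1, which acts on Dishevelled, was 108 ± 51 CPM in WT, 19.9 ± 22.8 in HET and 8.35 ± 2.28 in KO. WLS, the carrier that takes WNT ligands to the cell surface, was 12.5 ± 1.82, 4.27 ± 1.99 and 5.17 ± 1.58 CPM. TNFRSF19, a receptor known as a WNT target, was 328 ± 31, 142 ± 52.9 and 41.2 ± 13.2 CPM, and PRICKLE2, a planar polarity gene, 32.4 ± 8.89, 94.5 ± 23.7 and 141 ± 25.7 CPM, and these 4 genes passed in both mutants. NOTUM, higher in both mutants at day 3, passed as lower in KO at day 7. It was 3.51 ± 2.84 CPM in WT, 4.72 ± 7 in HET and 0.541 ± 0.261 in KO. Of the 52 members, 21 overlap a gene on the opposite strand in GENCODE 29, among them LEF1, WNT5A, WNT2B, WNT11, LRP6, LGR4 and TCF7. The length of each overlap was not measured. Strand use in counting is not given in the sources used here, so reads from the overlapping stretches cannot be told apart.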

How the data were processed

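The authors deposited expected counts and TPM per gene; per the submitters' processing notes the tools were cutadapt 4.8, STAR 2.7.8a and RSEM 1.3.3 with GRCh38, and per the labels' protocols the libraries were rRNA-depleted total RNA read as 151 bp pairs. The annotation release and strand setting are not given in the sources used here. The deposited FPKM values were not used. Expected counts were rounded to whole numbers and 4 reporter rows were left out. Genes were tested with edgeR 4.0.16 in R 4.3.3 (TMM, filterByExpr, quasi-likelihood F test, Benjamini-Hochberg over all genes tested), on the 12 libraries of a day, the 12 WT libraries or all 36. The fits were run on simulated counts with independent libraries and a fixed spread, which cannot test them for correlated or outlying libraries as seen here. SE is the log2 difference divided by the square root of F. Alternatives used DESeq2 1.42.0, limma 3.58.1 on log2(TPM + 1) or log2(TPM + 0.1), other scalings, no filter, a replicate block and left-out replicates. Values in every library are given for members that passed against WT with at least 2 CPM and no overlap, up to 10 per comparison by log2 difference, and for AXIN2, LEF1, LRP5 and LRP6. Other pathway genes are named from the 4 largest differences that passed in each comparison with WT, and not all of those are given. Members and lists were chosen with earlier results of these data known. Labels give shared replicate numbers but no shared batch for them. Deviations of same-numbered replicates correlated above 0.1 in every pair for KO against WT at day 0 (r 0.137 to 0.334) and HET against WT at day 3 (r 0.104 to 0.614). The main calls of these comparisons did not use that pairing, and the counts with the replicate block are given beside them.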

Additional observations from a re-analysis of the deposited data

Results flagged for a closer look

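In 14 of 179 groups of 4 libraries checked, 1 library stood apart from the other 3 (by Dixon's test on the gap to the nearest library), where chance alone flags about 8.95. At day 0 these were FZD6 in HET replicate 1 (16.6 CPM), WNT3A in HET replicate 1 (7.39 CPM) and WNT10B in KO replicate 2 (9.61 CPM), each the highest of its group. At day 3 they were replicate 4 of HET for FZD7 (81.9 CPM), LRP5 (48.0 CPM), WNT11 (33.8 CPM) and WNT2B (36.2 CPM), and replicate 4 of KO for FZD9 (4.20 CPM) and WNT11 (3.56 CPM), all the highest. At day 7 FZD3 was lowest in HET replicate 1 (104 CPM), where LRP5 (16.1 CPM) and WNT9A (6.40 CPM) were highest, and LGR4 was highest in KO replicate 1 (57.6 CPM) and LRP5 in KO replicate 3 (14.9 CPM).

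The step between days differed from that of WT for the following members with values given by the naming rule (edgeR interaction test over 36 libraries, log2 differences). From day 0 to 3 in KO they were DKK3 (1.43), FZD3 (1.14), LGR4 (1.16), FZD5 (-1.91), FZD9 (-2.36), LRP5 (-0.65) and LEF1 (-2.85), and in HET LGR4 (1.11). WNT5A (-2.55) and TCF7 (-1.37), outside that rule, made up the 9 that passed in KO. From day 3 to 7 in KO they were FZD8 (3.46), FZD9 (2.24), LGR6 (3.78), SFRP2 (3.16), FZD2 (-3.0), FZD6 (-1.46), FZD7 (-1.24), LGR4 (-1.46), FRZB (-1.89), SFRP1 (-3.83) and WNT9A (-2.04). Outside the rule FZD4 (-1.42), TCF7 (1.28), TCF7L2 (1.21) and DKK2, which was at 0 in WT at day 7, made up the 15. From day 3 to 7 in HET they were FZD2 (-1.5), FZD6 (-1.44), FZD7 (-2.0), LGR4 (-1.08) and SFRP1 (-2.64). The calls for FZD3, LRP5, FZD7 and LGR6 in KO and for LGR4 in the first step of HET were each lost under at least 13 of 25 alternatives.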

How the results depend on the processing

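Of 109 named calls, over 25 members, 32 were kept under every alternative tried, and 2 changed direction. These were DKK3 and LRP5 from day 0 to 3 in WT, at -0.15 and -0.37 with log2(TPM + 1) and -0.17 and -0.45 with log2(TPM + 0.1), where the median of all genes moved to -0.38 and -0.76; the cause was not tested. Counts of members that passed moved most on the TPM scale. With log2(TPM + 1) they were 0 and 0 at day 0 (KO and HET against WT), 3, 0 and 0 at day 3 (KO and HET against WT, KO against HET), 5, 0 and 0 at day 7, 13 for WT day 7 against day 3, 0 and 0 for the day 0 to 3 steps of KO and HET, and 6 and 1 for the day 3 to 7 steps. The shares of all genes, in the same order, were 1.16% and 0.9%, then 3.78%, 0.181% and 0.181%, then 4.64%, 1.25% and 0.18%. They were 30.2% for WT day 7 against day 3, 1.3% and 0.254% for the first steps, and 3.8% and 0.44% for the second. With log2(TPM + 0.1) the counts of members were 1 for HET at day 0, 4, 0 and 0 at day 3, 9, 3 and 0 at day 7, 17 for WT day 7 against day 3, 3 and 2 for the first steps, and 7 and 1 for the second. The shares of all genes were 1.15%, then 5.78%, 0.492% and 0.436%, then 8.82%, 5.8% and 0.414%. They were 33.5% for WT day 7 against day 3, 1.3% and 0.226% for the first steps, and 4.89% and 0.67% for the second. With TPM rescaled without the small structural RNAs, an alternative chosen after seeing the data, the counts of members were 0 and 0 at day 0, 11 for KO at day 3, and 1 for KO against HET at day 3 and at day 7. Of all genes 1.6% and 1.29% then passed at day 0, 19.1% for KO at day 3, and 3.26% and 1.23% for KO against HET. DESeq2 gave 6 and 5 at day 0, where 2.3% and 1.64% of all genes passed, and 2 for the first step of HET, where 0.444% passed. That step had 0 with library size alone and 0 without a filter, where 0.222% and 0.121% passed. The share of small structural RNAs as a covariate gave 1 for HET at day 0, where 1.61% of all genes passed. Without the first HET and KO replicates day 0 gave 6 and 1, where 2.94% and 1.89% of all genes passed. Without replicate 4 of every group HET at day 3 gave 6, where 6.17% passed. Both alternatives were also chosen after seeing the data.

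With the replicate number as a block the counts were 7 for KO and 5 for HET at day 0, where 4.7% and 3.37% of all genes passed. They were 6 for HET and 9 for KO against HET at day 3, where 8.79% and 12.7% passed. The other 11 counts stayed within 1.5 times. At day 0 the deviations of each KO library correlated best with those of the WT library of its own number. The reverse, from each WT library, was not checked. With 1 replicate left out the counts ranged from 2 to 4 (KO) and 1 to 4 (HET) at day 0, 10 to 17 (KO), 2 to 5 (HET) and 0 to 4 (KO against HET) at day 3, 15 to 17, 9 to 17 and 0 to 2 at day 7, 34 to 36 and 26 to 32 in the WT course, 6 to 13 and 0 to 1 in the first steps of KO and HET, and 12 to 15 and 5 to 8 in the second, 8 without HET day 7 replicate 1. The share of all genes that passed with 1 replicate left out is not given in this report, so these ranges cannot be set beside it. Members near 0 at a day, such as WNT3A after day 0, were not tested there, so a difference was not detectable at this depth.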
